A study of Homo sapiens with 10 samples.

Results

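The RB1 siRNA experiment set 1 chromatin immunoprecipitation (ChIP-seq) library of 22RV1 cells given an siRNA against RB1 (RB1_S1) beside 1 library of cells given a control siRNA (RB1_NC). These are 2 of the 10 samples of the series, and 2 of the 6 libraries with a peak list. Of the others, the pair of an empty vector, EV(245-255), and a plasmid for HA-tagged RB residues 245-255, HA-RB(245-255), is used beside the siRNA pair. A genotype field lists HA-RB(245-255) among controls, and its title was followed instead. The RBN pair and 4 IgG libraries were not analysed here. 22RV1 is an established human prostate cancer line. No genotype beyond the siRNA, no time after transfection and no siRNA sequence is given in the sources used here, and neither is the antibody. The series title names TRIM24, but no label ties the immunoprecipitation to it. All groups share the same line, growth medium, fixation and library protocol. Each group is 1 library without a replicate, so no difference between the libraries carries a p-value. Every interval below covers counting error only, and amplified reads without molecular identifiers are not independent molecules.

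RB, the protein made from RB1, binds E2F transcription factors at the starts of cell-cycle genes and holds those genes back. When RB is phosphorylated by cyclin-dependent kinases or lost, E2F factors drive genes for DNA synthesis and mitosis. TRIM24 is a chromatin reader and transcription co-regulator of the TIF1 family that acts with nuclear receptors, among them the androgen receptor of prostate cells. 22RV1 is commonly used as a line that keeps androgen receptor signalling and expresses RB.

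The peak lists had to be compared by summits, since their intervals tile the genome. The median interval was 83572 bp long with the control siRNA and 51048 bp with RB1 siRNA, and each interval lists 1 summit. On chromosomes 1-22 and X the control siRNA list held 20718 summits and the RB1 siRNA list 33803. The number of DNA fragments stacked at a summit was recovered from the deposited fold enrichment and p-value for 99.9% of the control siRNA summits and for every RB1 siRNA summit. A summit was called shared when the partner list had one within 250 bp. There were 6209 shared summits, which is 29.97% of the control siRNA list (95% Clopper-Pearson interval 29.3 to 30.6) and 18.4% of the RB1 siRNA list (18.0 to 18.8). The 3371 shared summits with at least 40 fragments over both libraries were compared. Of these 2210 (65.6%) lay at a gene end, within 1 kb of where a protein-coding gene starts or stops, 610 inside a gene body and 551 between genes. The ratio of a site is the log2 of RB1 siRNA over control siRNA fragments minus 0.26, the median of the 3371 sites, and is called the centred log2 ratio.

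Promoter sequences are shown for 10 genes whose values are described further on, 6 with fewer and 4 with more fragments after RB1 siRNA than at the median site. They run from 250 bases before to 50 bases after the gene start, 5′ to 3′ on the gene's strand, from RefSeq (GRCh38.p14). Capitals mark 4 motifs on either strand, namely the E2F element TTTGGCGC, the related GGCGGGAA, the CCAAT box and the cyclic AMP response element TGACGTCA. A match is a run of letters and not a measured site.

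The lower group starts with EZH2, at chr7:148884242-148884541 (minus strand), E2F2, at chr1:23531184-23531483 (minus strand), MCM7, at chr7:100101348-100101647 (minus strand), CBX5, at chr12:54280073-54280372 (minus strand), CIART, at chr1:150282304-150282603 (plus strand), and ALK, at chr2:29921537-29921836 (minus strand).
EZH2: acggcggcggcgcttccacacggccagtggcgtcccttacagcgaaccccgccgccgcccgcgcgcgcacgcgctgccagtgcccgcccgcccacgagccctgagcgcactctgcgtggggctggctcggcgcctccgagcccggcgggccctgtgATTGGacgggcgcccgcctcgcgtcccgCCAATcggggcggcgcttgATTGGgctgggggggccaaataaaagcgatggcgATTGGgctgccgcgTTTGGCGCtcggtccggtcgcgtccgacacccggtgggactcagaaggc
E2F2: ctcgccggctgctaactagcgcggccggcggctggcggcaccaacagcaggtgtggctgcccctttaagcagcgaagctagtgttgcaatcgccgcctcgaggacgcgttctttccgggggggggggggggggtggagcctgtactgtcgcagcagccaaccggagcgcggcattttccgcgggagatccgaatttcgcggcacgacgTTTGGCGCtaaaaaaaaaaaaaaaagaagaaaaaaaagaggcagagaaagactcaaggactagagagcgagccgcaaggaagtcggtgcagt
MCM7: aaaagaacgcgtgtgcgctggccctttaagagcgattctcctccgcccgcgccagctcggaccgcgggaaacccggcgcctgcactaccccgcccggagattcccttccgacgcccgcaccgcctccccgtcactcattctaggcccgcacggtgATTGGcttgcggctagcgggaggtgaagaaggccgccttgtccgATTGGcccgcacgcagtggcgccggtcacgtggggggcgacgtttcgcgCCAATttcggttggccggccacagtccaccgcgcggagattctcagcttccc
CBX5: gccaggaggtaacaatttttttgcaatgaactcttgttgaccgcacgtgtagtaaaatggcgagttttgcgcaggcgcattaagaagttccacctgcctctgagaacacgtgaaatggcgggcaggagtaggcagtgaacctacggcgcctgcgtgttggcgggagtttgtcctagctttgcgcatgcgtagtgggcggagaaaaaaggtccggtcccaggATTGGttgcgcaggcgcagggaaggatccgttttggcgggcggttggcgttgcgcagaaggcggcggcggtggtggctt
CIART: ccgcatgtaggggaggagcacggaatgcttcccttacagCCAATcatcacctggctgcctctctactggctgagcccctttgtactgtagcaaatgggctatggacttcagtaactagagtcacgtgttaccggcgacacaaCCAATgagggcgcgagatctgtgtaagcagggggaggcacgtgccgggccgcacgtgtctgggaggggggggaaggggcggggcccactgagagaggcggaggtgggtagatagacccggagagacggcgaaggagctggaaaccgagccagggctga
ALK: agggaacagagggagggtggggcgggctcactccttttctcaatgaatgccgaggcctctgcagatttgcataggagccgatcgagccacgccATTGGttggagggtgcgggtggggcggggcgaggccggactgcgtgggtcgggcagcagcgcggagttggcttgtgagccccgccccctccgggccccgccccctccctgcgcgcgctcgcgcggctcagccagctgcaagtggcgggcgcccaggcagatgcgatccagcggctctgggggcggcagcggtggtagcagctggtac

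The higher group is PAWR, at chr12:79690915-79691214 (minus strand), CDCA4, at chr14:105021034-105021333 (minus strand), MDM4, at chr1:204516156-204516455 (plus strand), and JUND, at chr19:18281573-18281872 (minus strand).
PAWR: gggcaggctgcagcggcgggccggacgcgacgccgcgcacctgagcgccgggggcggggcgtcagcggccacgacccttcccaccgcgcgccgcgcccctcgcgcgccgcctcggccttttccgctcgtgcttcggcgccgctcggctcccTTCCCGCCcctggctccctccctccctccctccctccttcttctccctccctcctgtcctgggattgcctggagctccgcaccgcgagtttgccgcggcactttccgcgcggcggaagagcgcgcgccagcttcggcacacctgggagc
CDCA4: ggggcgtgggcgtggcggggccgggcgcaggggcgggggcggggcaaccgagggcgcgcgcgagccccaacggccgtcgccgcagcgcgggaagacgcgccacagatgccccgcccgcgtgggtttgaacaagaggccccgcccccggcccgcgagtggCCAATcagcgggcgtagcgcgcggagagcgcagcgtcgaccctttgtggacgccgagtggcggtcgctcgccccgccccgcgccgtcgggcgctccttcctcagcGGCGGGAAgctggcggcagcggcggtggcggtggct
MDM4: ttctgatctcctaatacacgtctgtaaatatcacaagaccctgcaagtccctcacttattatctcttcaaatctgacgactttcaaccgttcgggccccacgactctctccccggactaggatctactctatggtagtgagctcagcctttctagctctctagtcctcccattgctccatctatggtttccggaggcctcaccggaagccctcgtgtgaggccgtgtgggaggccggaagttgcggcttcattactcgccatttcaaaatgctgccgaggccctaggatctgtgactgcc
JUND: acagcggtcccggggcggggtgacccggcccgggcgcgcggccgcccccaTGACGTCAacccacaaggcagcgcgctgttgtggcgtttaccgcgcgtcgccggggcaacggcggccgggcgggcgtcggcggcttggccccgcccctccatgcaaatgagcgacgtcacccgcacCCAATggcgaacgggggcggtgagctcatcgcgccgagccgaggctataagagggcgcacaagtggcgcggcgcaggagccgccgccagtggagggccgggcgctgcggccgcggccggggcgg

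The EZH2 promoter holds 1 E2F element 3′ of 4 CCAAT boxes, and its summit lay 218 bp upstream of the start, inside the printed stretch. E2F2 carries 1 E2F element as well, but its summit lay 177 bp downstream of the start, past the printed end. MCM7 has 3 CCAAT boxes and no match to the E2F letters. PAWR and CDCA4 each have 1 GGCGGGAA, JUND has 1 response element and 1 CCAAT box, and MDM4 has none of the 4 motifs. The printed GC content ran from 52.7% in MDM4 to 79.3% in CDCA4.

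The shared summits at gene ends mostly lay close to gene starts. A start and strand were known for 1878 of the 2210 gene-end summits, and 1378 of these (73.4%) lay within 250 bp of the start. That start is the first one the RefSeq promoter table lists for a gene, and 1469 (78.2%) lay within 250 bp of the nearest of all listed starts. The median position from the first listed start was 91 bp upstream (-91, quartiles -194 and 42). The same summit served more than 1 gene at 440 gene ends, as at divergent promoters. Of all 19970 protein-coding genes, 2660 (13.3%) had a compared summit at an end.

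**Figure D1:**
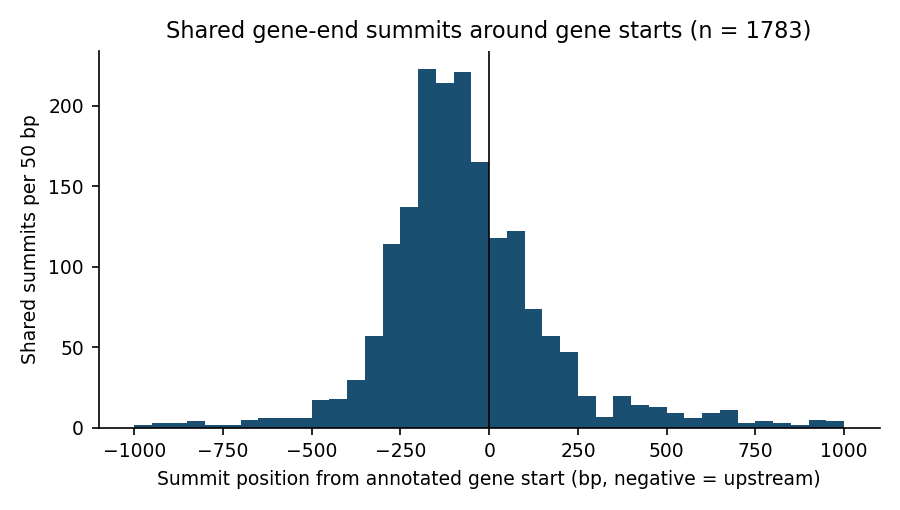
Histogram of shared gene-end summits by distance from the first listed gene start in bp, negative upstream, in bins of 50 bp. The counts are highest just upstream of the start, where the median is -91 bp.

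Promoters with a compared summit differed in sequence content from the full set of 15811. Their median GC content was 66.7% against 62.7% for all, and 65.7% for the 200 with the most fragments. The SP/KLF letters GGGCGG were present in 80.3% of the 2042 promoters with a summit and in 58.5% of all. CCAAT was present in 46.7% against 36.3%, the NRF1 motif in 14.4% against 8.58%, GGCGGGAA in 8.13% against 4.24% and TTTGGCGC in 1.67% against 0.892%. The E-box CACGTG was present in 12.2% against 8.87%, and the AP-1 letters TGANTCA were less frequent, at 3.13% against 5.76%. Among the 200 strongest promoters the share with TTTGGCGC was 4.0%, with GGCGGGAA 14.0% and with CCAAT 53.5%. These shares describe where summits lay in both libraries and say nothing of a difference between them.

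The 2 libraries gave nearly the same fragment numbers at most shared sites. The middle of the distribution ran from -0.22 to 0.24 (quartiles), with an SD of 0.374. Above 1 log2 unit lay 27 of 3371 sites (0.801%), and below -1 lay 19 (0.564%). At gene ends the numbers were 8 of 2210 (0.362%) and 6 (0.271%). Over all sites the 95% interval lay above the median at 122 (3.62%) and below it at 201 (5.96%). It lay above the median at 57 gene ends (2.58%) and below it at 101 (4.57%). By construction the exact interval leaves out at most 2.5% on each side from counting error. The centre is the plain median, and the sites with 400 or more summed fragments had a median of -0.25 around it. The part of this in the counts above and below was not tested. The 245-255 pair of the same series is HA-RB(245-255) over its empty vector. There 7 (0.416%) of 1682 gene ends lay above 1 log2 unit and 8 (0.476%) below -1. Its intervals lay above the median at 28 (1.66%) and below it at 44 (2.62%). That pair was weaker over all compared sites. Under 60 summed fragments it had 1242 of 3021, and the siRNA pair 869 of 3371. Weaker sites have wider intervals, so the shares of the 2 pairs are not on a like footing. Sites away from genes spread more in the siRNA pair. Of 551 intergenic sites 11 (1.996%) lay above 1 log2 unit and 8 (1.45%) below -1. The medians of the 3 classes were alike, at 0.00 for gene ends, 0.01 for gene bodies and 0.01 for intergenic sites.

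**Figure D2:**
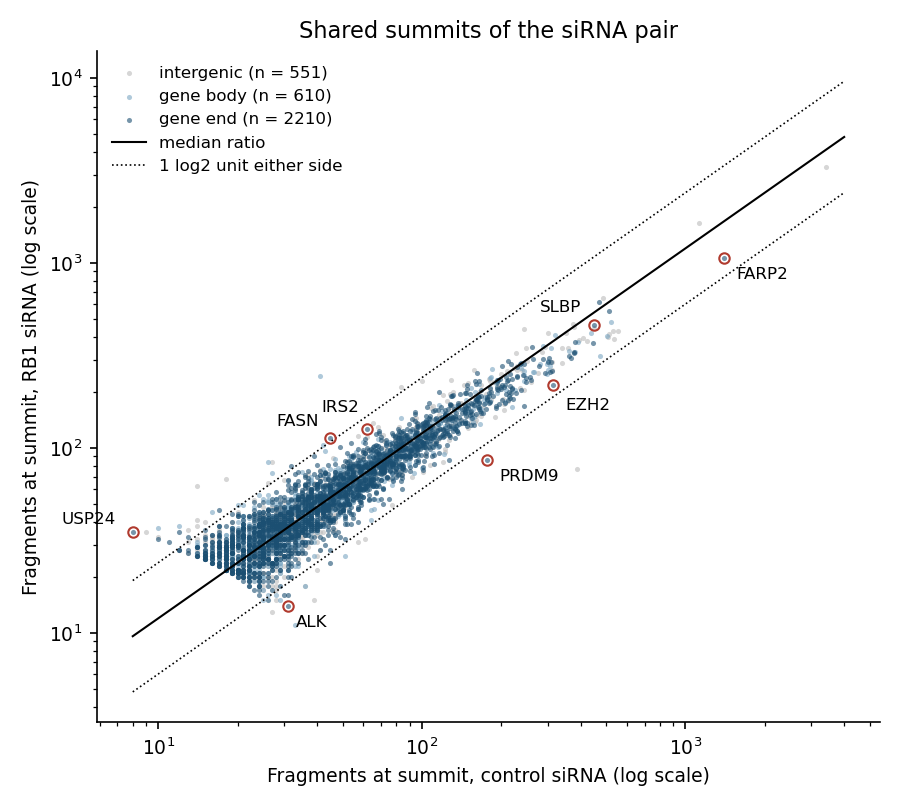
Fragments at each of the 3371 compared summits with the control siRNA (x axis) and RB1 siRNA (y axis), both on log scales, coloured by position, with the median ratio (solid) and 1 log2 unit either side (dotted). Most sites follow the line, 27 lie above the upper and 19 below the lower dotted line.

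The ratio moved with the strength of a site. Sites with at least 40 and under 60 summed fragments had a median centred ratio of 0.04, those with at least 250 and under 400 had -0.11, and the 136 sites with 400 or more had -0.25. Gene ends made up 60.8%, 61.9% and 47.1% of these 3 classes, and the part of position in the trend was not tested. In the 245-255 pair the medians in those 3 classes were 0.00, -0.01 and 0.07. The local background unit of the control siRNA list was 1.24 times that of the RB1 siRNA list, which in MACS2 scales with fragment length, and the part of this in the strength trend was not tested. A second centred value, against a running median over up to 201 sites ordered by strength, is therefore given for strong sites as the value at like strength. The 105 strongest sites share 1 centre, -0.19, which includes weaker sites and lies above the -0.25 of the class with 400 or more, so their values at like strength are only partly corrected for the trend. The robust SD was 0.44 in the weakest class, where counting alone gives 0.42. It was 0.31 at 400 or more, where counting gives 0.13. The SD over all compared sites was 0.398 in the 245-255 pair, and 0.783 between that pair's empty vector and the control siRNA, a comparison that shares the control siRNA library.

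**Figure D3:**
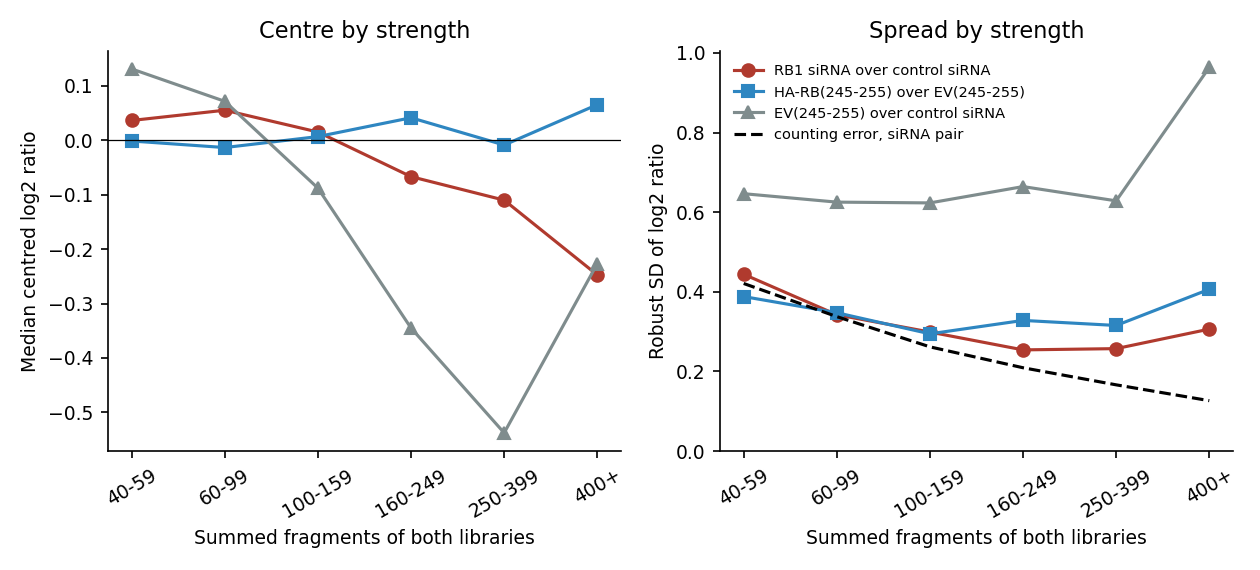
Median centred log2 ratio (left) and robust SD of the log2 ratio (right) in 6 classes of summed fragments, for the siRNA pair (circles), the 245-255 pair (squares) and its empty vector over the control siRNA (triangles). The dashed line is the SD from counting alone for the siRNA pair, which falls to 0.13 while the measured value stays at 0.31.

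TRIM24, DUSP2 and MTOR are named by the series title, and RB1 is the siRNA target. TRIM24 had 103 fragments at its lower end with the control siRNA and 138 with RB1 siRNA, a centred ratio of 0.16 (95% interval -0.22 to 0.54). That interval includes the median. RB1, on chromosome 13 from 48303751 to 48481890 (hg38), had 9 and 23 fragments at its lower end, under the minimum of 40 in sum, and 1.09 (-0.08 to 2.39). A summit at the gene does not measure the RB1 transcript, so the knockdown was not checked by these files. DUSP2, a phosphatase of MAP kinases, had 33 fragments 70 bp from its upper end with RB1 siRNA. The control siRNA interval over DUSP2 lists its summit 63342 bp away with 39 fragments, so a stack at DUSP2 of up to 39 would not have been listed, and no direction can be given. MTOR had no summit within 1 kb of either end in these 2 lists.

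EZH2, which encodes the methyltransferase of polycomb complex 2, had the upper interval bound farthest below the median among gene starts within 250 bp of a summit. It had 315 fragments with the control siRNA and 219 with RB1 siRNA, a centred ratio of -0.79 (-1.04 to -0.53). At like strength the value was -0.60 (-0.85 to -0.34). In the 245-255 pair the same site had 47 and 44 fragments, at -0.04. The 2 pairs differ in depth, and no difference between them was tested at any site.

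Further gene ends had fewer fragments with RB1 siRNA than at the median site. PRDM9, which encodes a methyltransferase that places meiotic recombination, had 176 and 86 fragments at its end far from the start, at -1.30 (-1.69 to -0.92). FARP2, a guanine nucleotide exchange factor gene, had 1400 and 1061, at -0.66 (-0.78 to -0.55) and -0.47 at like strength. In the 245-255 pair FARP2 had 827 and 604, at -0.39 (-0.55 to -0.24), also below that pair's median. GPR137 had 244 and 169, at -0.79 (-1.08 to -0.50), with the summit 697 bp from the lower end of this plus-strand gene. These 3 summits lay more than 500 bp from any listed start.

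CIART, a circadian repressor gene, had 127 and 86 fragments 89 bp upstream of its start, at -0.83 (-1.24 to -0.42). ALK, a receptor tyrosine kinase gene, had 31 and 14 fragments 41 bp upstream, at -1.41 (-2.43 to -0.46). CCZ1B had 45 and 24 fragments, at -1.17 (-1.95 to -0.42), and has a near-identical copy in the genome, so its reads are uncertain. The lower values at ALK and CCZ1B come from few fragments and have wide intervals.

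CIMAP1D (445 and 371 fragments), HMGN2 (368 and 306), RHOU (312 and 261) and MPC2 (111 and 82) had ratios between -0.70 and -0.52. HMGN2 encodes a nucleosome-binding protein and MPC2 a subunit of the mitochondrial pyruvate carrier. At like strength the first 3 of these were at -0.34, -0.34 and -0.33, with upper bounds of -0.13, -0.12 and -0.09. At HMGN2 the 245-255 pair lay on the other side of its median, with 53 and 89 fragments and 0.81. At CIMAP1D it lay on the same side, with 303 and 241 and -0.27 (-0.52 to -0.02). APEX2, a DNA repair nuclease gene, had 31 and 16 fragments, at -1.22 (-2.19 to -0.30), where the control siRNA value has 3 solutions.

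Gene ends with more fragments were led by USP24, a deubiquitinase gene, with 8 and 35 fragments. Its centred ratio was 1.87 (0.73 to 3.19), and the same site had 13 and 15 fragments in the 245-255 pair. FASN, the fatty acid synthase gene, had 45 and 113, at 1.07 (0.55 to 1.60), and 17 and 29 in the 245-255 pair, at 0.83. NDFIP1, which encodes an adaptor of Nedd4-family ubiquitin ligases, had 10 and 32, at 1.42 (0.36 to 2.60). Each of these intervals excludes the median, and those of USP24 and NDFIP1 span more than 2 log2 units.

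IRS2, an adaptor of insulin and IGF receptors, had 62 and 127 fragments, at 0.77 (0.32 to 1.23). IARS1, isoleucyl-tRNA synthetase, had 12 and 35, at 1.28 (0.30 to 2.36). PAWR, a pro-apoptotic gene, had 49 and 101 fragments 98 bp upstream of its start, at 0.78 (0.27 to 1.30). At PAWR the 245-255 pair had 61 and 34, at -0.78, on the other side of its median. CDCA4, which encodes a regulator of E2F-dependent transcription, had 54 and 106, at 0.71 (0.22 to 1.21).

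PPP3CB, a calcineurin subunit gene (32 and 80 fragments), SYPL1 (39 and 90), TRPM7, a cation channel and kinase gene (17 and 46), the shared start of DLG2 and TMEM126B (34 and 74) and that of OPN3 and CHML (33 and 72) also had intervals above the median. Their centred ratios lay between 0.86 and 1.17. At these 5 sites the control siRNA value has more than 1 solution, and the lowest, used throughout, is the one printed. The highest solution would need 1605 to 4379 fragments in the control siRNA library over a local background at least 2319 times the genome background, and turns each ratio negative. The intervals above the median at these 5 sites therefore hold only with the lowest solution.

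**Figure D4:**
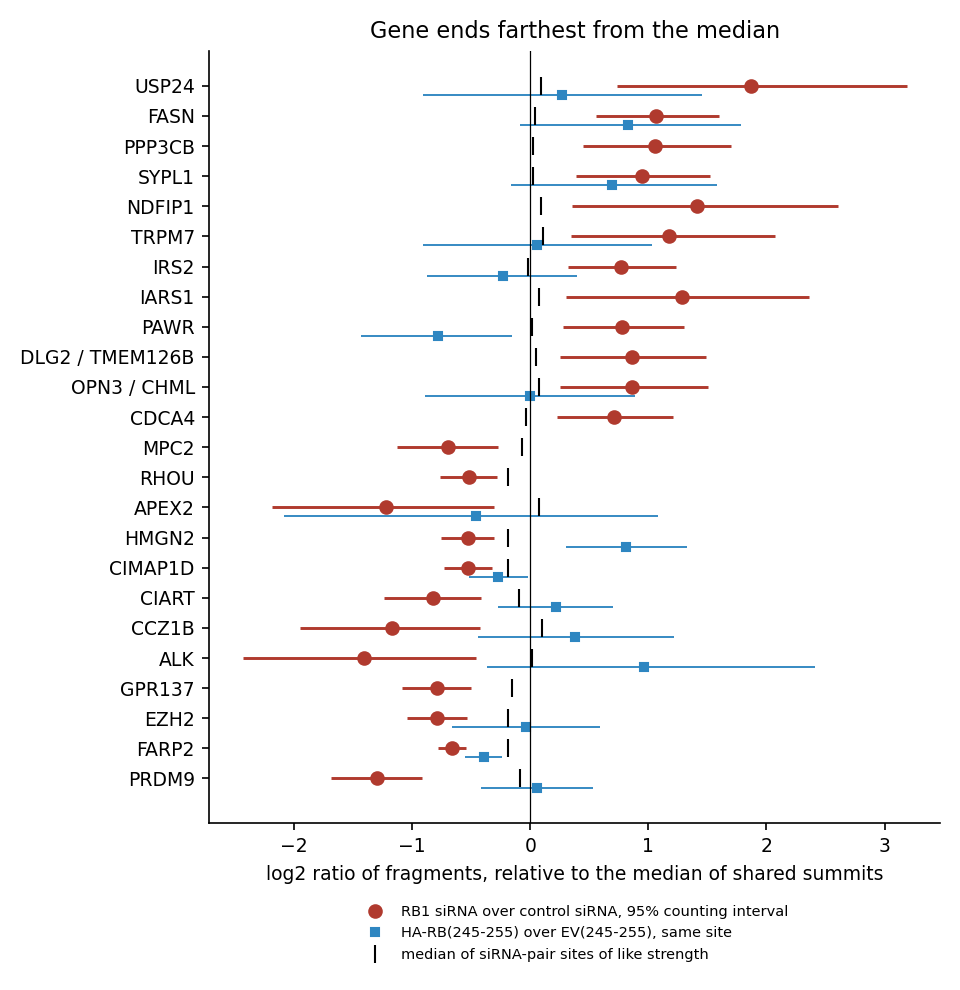
Centred log2 ratio of the 12 gene ends with the interval farthest above and the 12 farthest below the median (circles, bars for the 95% counting interval), with the value of the same site in the 245-255 pair (squares) and the median of siRNA-pair sites of like strength (ticks). The gene ends were chosen by these ratios, so their distance from 0 is a description, and PAWR and HMGN2 have squares on the other side of 0.

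Several of the gene ends with the most fragments lay close to the median at like strength. SIVA1, an apoptosis regulator gene, had 513 and 549 fragments, at -0.17, and SLBP, which encodes the histone mRNA stem-loop binding protein, had 448 and 464, at -0.21 (-0.40 to -0.02). At like strength both were at 0.02 and -0.02. PIM1, a serine/threonine kinase gene, had 382 and 375, at -0.29 and -0.10 at like strength. MCPH1, a chromosome condensation gene, had 471 and 615, at 0.12 and 0.31 (0.14 to 0.49) at like strength, where the control siRNA value has 2 solutions. The MCPH1 summit lay 595 bp past the upper end of the gene. GET4 (261 and 353) had 0.36, TMEM87B (362 and 314) had -0.28 and FAM86B1, which has near-identical copies, (304 and 305) had -0.07 at like strength.

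The E2F side of the RB pathway was described by lists of related genes, beside all 2210 gene ends, of which 1091 lay above and 1110 below the median. Of 17 RB family and E2F genes, 7 had a compared summit, with 2 above and 5 below and a median of -0.34 (-0.27 at like strength). E2F2 had 191 and 168 fragments, at -0.45 (-0.76 to -0.14), and its interval alone among the 7 excluded the median. At like strength it was at -0.31 (-0.62 to -0.005), with the upper bound close to 0. E2F3 had 97 and 92, E2F7, a repressor of E2F targets, had 69 and 62, and E2F8 had 167 and 191, at -0.34, -0.42 and -0.07. TFDP2, a partner of E2F proteins, had 24 and 17, at -0.76 (-1.75 to 0.20). LIN52, of the DREAM complex, had 62 and 82, at 0.14, and E2F6 had 17 and 24, at 0.23.

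Of 12 polycomb complex 2 genes, 6 had a compared summit, with 1 above and 5 below and a median of -0.26 (-0.22 at like strength). Beside EZH2, SUZ12 had 49 and 45 fragments, at -0.39, PHF1 had 80 and 74, at -0.38, JARID2 had 89 and 96, at -0.15, RBBP4 had 103 and 114, at -0.12, and EED had 25 and 32, at 0.09. SUZ12 and EED are core subunits with EZH2, and the intervals of these 5 genes include the median. In the HP1 and TRIM24 relatives list, CBX5, which encodes HP1α, had 306 and 259, at -0.50 (-0.75 to -0.26) and -0.31 at like strength. CBX3, another HP1 gene, had 229 and 242, at -0.18, and TRIM28, the corepressor of zinc finger proteins, had 104 and 140, at 0.17.

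DNA synthesis genes had 3 above and 8 below among 11 compared of 44, with a median of -0.19 (-0.11 at like strength). RRM2B, a p53-inducible subunit of ribonucleotide reductase, had 154 and 133, at -0.47 (-0.82 to -0.13) and -0.36 (-0.71 to -0.02) at like strength. RRM2, the S-phase subunit, had 124 and 121, at -0.30 (-0.67 to 0.07). LIG1, DNA ligase of replication, had 176 and 183, at -0.21, GMNN, the licensing inhibitor, had 97 and 130, at 0.16, and CDC6, a loader of the helicase, had 55 and 74, at 0.17. Only the interval of RRM2B among the 11 excluded the median.

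The MCM helicase genes had 1 above and 4 below among 5 compared of 9. MCM7 had 259 and 234, at -0.41 (-0.67 to -0.15), and at -0.22 at like strength with an interval that includes 0. MCM4 had 127 and 131, MCM5 79 and 88 and MCM10 39 and 45, at -0.22, -0.11 and -0.06, while MCM2 had 77 and 107, at 0.21. Mitosis genes had 2 above and 8 below among 10 compared of 30, with a median of -0.11, and no interval excluded the median. In that list TTK, a checkpoint kinase, had 45 and 40, CDK1 38 and 36 and PRC1, which bundles spindle microtubules, 40 and 64. The G1 cyclin and kinase genes had 4 above and 0 below among 4 compared of 17. They were CDK4 (128 and 170), CDKN2D (76 and 105), CCND1 (59 and 73) and CDKN1B (45 and 62), at 0.04 to 0.20, each with an interval that includes the median. The CCND1 summit lay 304 bp past the upper end of the gene, whose start and strand were not among those known here.

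**Figure D5:**
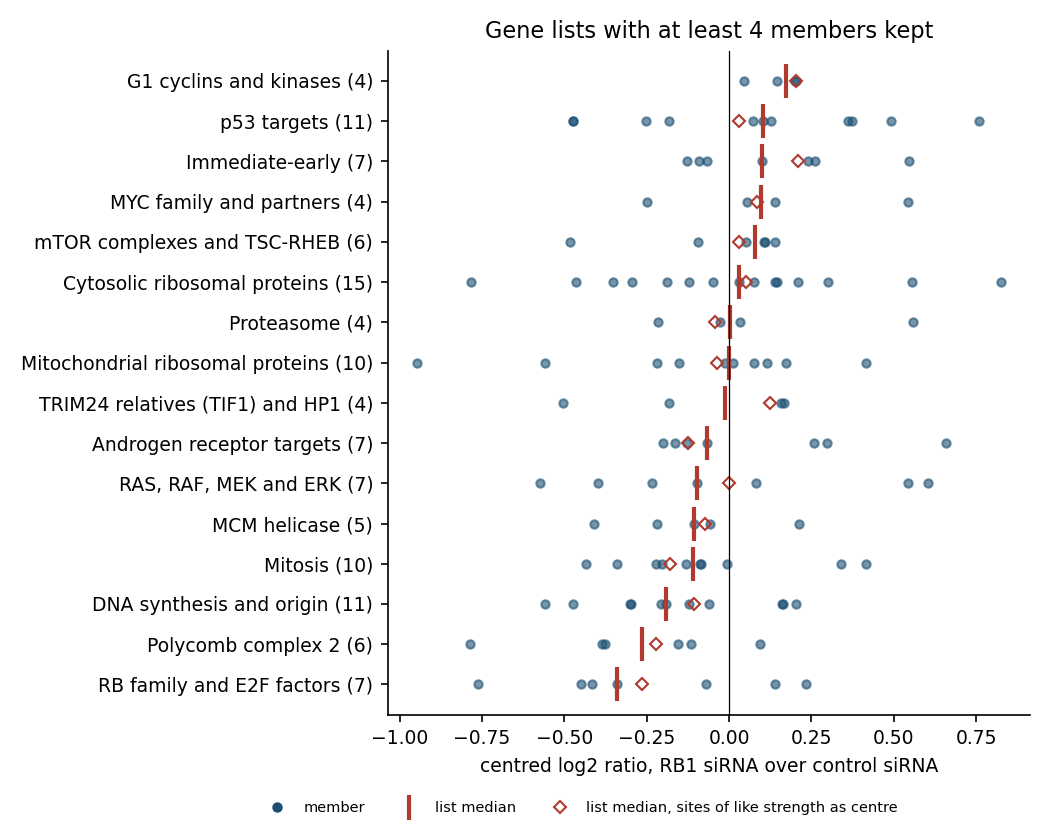
Centred log2 ratio of each compared member (points) of the 16 gene lists with at least 4 members, with the list median (bar) and the median at like strength (diamond). The RB family and E2F list has the lowest median, -0.34 over 7 genes, and the members of each list spread across more than the distance between list medians, apart from the G1 list.

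Promoters with the E2F element TTTGGCGC were 34 among the 2042 compared. Their median centred ratio was -0.17 against -0.02 for the rest, and -0.08 against 0.00 at like strength. The interval lay below the median at 5 and above it at 0 of the 34, beside 4.57% below and 2.58% above over all gene ends. Promoters with GGCGGGAA were at -0.02 against -0.02, and those with CCAAT at -0.02 against -0.02. At like strength other motifs had medians as low, with -0.08 for TCGCGAGA, -0.07 for the YY1 motif and -0.07 for the cell-cycle element TTTGAA. Of the 75 promoters with TCGCGAGA, the interval around the plain centred ratio lay below the median at 5 and above it at 1. The direction of the E2F element group rests on few promoters, of which EZH2 and E2F2, printed above, are 2.

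Genes of mTOR signalling, which the series title links to DUSP2, and of the MAP kinase cascade had list medians between -0.10 and 0.13. Of 27 mTOR complex and TSC-RHEB genes, 6 had a compared summit, with 4 above and 2 below and a median of 0.08. RHEB, the activating GTPase, had 94 and 117, at 0.05. AKT1S1, which encodes the inhibitor PRAS40, had 191 and 164, at -0.48 (-0.79 to -0.17) and -0.34 (-0.65 to -0.03) at like strength. That summit lay inside AKT1S1, and an end of another gene lay nearer to it, at 316 bp. The DUSP genes with a compared summit were DUSP1 (83 and 107), DUSP4 (48 and 63) and DUSP7 (31 and 45), at 0.10, 0.13 and 0.27, each with an interval that includes the median. Among 7 genes of the RAS to ERK cascade 3 lay above and 4 below, with SHC1 at 131 and 147 and GRB2 at 17 and 31.

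Immediate-early genes had 4 above and 3 below among 7 compared of 20. JUND, an AP-1 subunit gene, had 61 and 107 fragments, at 0.55 (0.08 to 1.03). JUN had 101 and 130, at 0.10, EGR1 had 127 and 143, at -0.09, and KLF6 had 48 and 69, at 0.26. p53 targets had 7 above and 4 below among 11 compared of 24, with a median of 0.10 (0.03 at like strength). MDM4, an inhibitor of p53, had 31 and 63 fragments, at 0.76 (0.12 to 1.43), and MDM2 had 35 and 54, at 0.36 (-0.28 to 1.02). GADD45A, a growth arrest gene, had 27 and 42, at 0.37, and DDB2, a damage recognition gene, had 59 and 51, at -0.47. TP53I3 had 147 and 148, at -0.25, but that summit lay past its end far from the start. An end of another gene lay nearer to it, at 176 bp.

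Androgen receptor targets had 3 above and 4 below among 7 compared of 20, with a median of -0.07. ZBTB10 had 28 and 53, at 0.66 (-0.03 to 1.37), C1orf116 had 39 and 56, at 0.26, and NDRG1 had 41 and 47, at -0.07. GRHL2, an epithelial factor of the lineage list, had 106 and 118, at -0.11. MYC had 28 and 37, at 0.14, and MXD4, a MYC antagonist, had 36 and 63, at 0.54 (-0.07 to 1.18). ONECUT2, of the neuroendocrine list, had 18 and 32, at 0.57 (-0.31 to 1.49). RELB had 50 and 46, at -0.38, and IRF1 56 and 60, at -0.16.

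Ribosomal protein genes of the cytosol had 8 above and 7 below among 15 compared of 78, with a median of 0.03. RPS26 had 43 and 30, at -0.78 (-1.51 to -0.08), and RPL37A had 16 and 34, at 0.82 (-0.07 to 1.78). The genes of mitochondrial ribosomes had 5 above and 5 below, and those of the proteasome 2 and 2. MRPS28 had 45 and 28, at -0.95 (-1.68 to -0.24), where the RB1 siRNA value has more than 1 solution. None of 43 genes of other organs had a compared summit, beside 2660 (13.3%) of all 19970 protein-coding genes.

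Away from gene ends the strongest sites included GRIN1, a glutamate receptor subunit gene, with 474 and 313 fragments in its body, 11752 bp from an end. Its centred ratio was -0.86 (-1.07 to -0.65), and -0.67 at like strength. The other 5 gene-body sites had ratios between -0.37 and 0.08, among them DIP2C (392 and 374), RASA4 (320 and 407), which has near-identical copies, and ATF3 (288 and 357). The site with the most fragments lay between genes on chromosome 1 at 236097233, with 3420 and 3283, at -0.32 (-0.39 to -0.25). The next 5 intergenic sites all lay on the short arm of chromosome 21, between 5602672 and 7658612, with 507 to 556 fragments against 386 to 430. They were at -0.73 to -0.57, and at -0.54 to -0.38 at like strength. Their fragment numbers were much alike, and whether these 5 are separate sites or copies that share reads was not tested.

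Some distal sites had ratios as far from the median as the gene ends above, and they were picked after their values were seen. An intergenic site 3274 bp from ANKRD33 had 14 and 62, at 1.88 (1.03 to 2.84), and 112 and 133 in the 245-255 pair. A site in the body of AOPEP had 26 and 84, at 1.43, and 111 and 130. At these 2 places the 245-255 libraries had more fragments than the control siRNA library. In the other direction, an intergenic site on chromosome X at 40014497, 36789 bp from BCOR, had 61 and 32, at -1.19 (-1.86 to -0.55). The values at these 3 sites have 1 solution in both libraries. In the body of ANKRD11, on chromosome 16 at 89430419, there were 245 fragments with RB1 siRNA, but the control siRNA value has 3 solutions from 41 to 1562. The centred ratio is 2.32 with the lowest and -2.94 with the highest, so no direction holds over all its solutions, as at PPP3CB. A site in the ribosomal RNA genes RNA45SN2 and RNA28SN2, on chromosome 21 at 8218401, had 389 with the control siRNA, and its RB1 siRNA value has 3 solutions from 77 to 429. Its centred ratio runs from -2.60 to -0.12 over them. The value of -0.12 lies above -0.19, the centre of the strongest sites, so no direction can be given there either.

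Summits without a partner were compared through the interval that covers them in the partner list, whose listed summit in MACS2 is its highest stack. Of summits with at least 40 fragments, 429 of 2124 (20.2%) with the control siRNA and 888 of 2990 (29.7%) with RB1 siRNA had no partner. For 260 and 417 of them the covering interval listed a summit at least as high elsewhere, so the site itself could not be read. ZNF687 shows how this arises, with 276 fragments with the control siRNA and 268 with RB1 siRNA at summits 486 bp apart. KHSRP, a splicing regulator gene, had 202 with the control siRNA inside an RB1 siRNA interval of 336598 bp with a summit of 181. AP2A1 (192) and GSK3A (188) with RB1 siRNA lay inside control siRNA intervals whose summits held 191 and 214.

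The ceiling put the centred ratio above 1 at 8 sites of the RB1 siRNA list and at 0 of the control siRNA list. ODC1, which encodes ornithine decarboxylase of polyamine synthesis, had 106 fragments 135 bp from a gene end with RB1 siRNA. No stack in the covering control siRNA interval exceeded 29 fragments, so the centred ratio was at least 1.61. RALGPS1 (43 against at most 13, at least 1.46) and PDXK, the pyridoxal kinase gene (44 against at most 16, at least 1.20) followed. DPYSL2 had 118 against at most 48 in its gene body, at least 1.03. The other 4 were SNX25, MYO1H and 2 intergenic sites. The control siRNA ceilings at SNX25, MYO1H and 1 of these intergenic sites have more than 1 solution. The bounds carry no interval, and the number of such sites per library also follows the lengths of the 2 lists.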

How the data were processed

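The samples are ChIP-seq libraries of 22RV1 cells, and the deposited peak lists of the 2 siRNA libraries were compared, with those of the 245-255 pair beside them. The tools named, without role or order, are MACS2 2.1.0, Bowtie 1.1.2, Trimmomatic 0.33 and bcl2fastq 2.17, with human build hg38, per the submitters' processing notes. Tool settings, read totals and the role of IgG in peak calling are not stated there. The deposited lists, 1 per library and not pooled, give the authors' fold enrichment (a ratio), −log10 p-value, −log10 q-value and score of each peak. The score, the q-value and the strand were not used.

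Fragment numbers were solved from the deposited fold enrichment and p-value, as MACS2 defines them, accepting a pileup that is a whole number of fragment steps within 0.02 steps. Where several solutions fitted the lowest was taken. Several solutions in a library remained at 36 of the 130 named gene ends, and the text marks only some of these. A single solution was found for 93.5% of control siRNA and 95.0% of RB1 siRNA summits. The median summit held 6 and 5 fragments, and the genome background was 0.413 and 0.539 fragments per base, a value that mixes depth and fragment length. The method was tested on simulated data. Summits were paired within 250 bp, ratios were centred on the median of shared summits, and 95% intervals are exact binomial. Gene positions are of RefSeq GRCh38.p14, and start distances are to the first start listed for a gene, where 4036 genes have several. All 602 list symbols of 24 lists matched. Python 3.11.15, numpy 2.4.6, pandas 2.3.3, scipy 1.17.1 and matplotlib 3.10.9 were used. The alternatives were the pairing distance, the gene-end window, the centring, the minimum number of fragments, the highest solution and the fold.

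The members and lists were chosen with earlier results of these data known. The naming rule takes RB1, TRIM24, DUSP2 and MTOR, the 12 gene ends with the interval farthest above and the 12 farthest below the median, the 10 with the most fragments, up to 6 members of each list, 6 gene-body and 6 intergenic sites over 10 kb from a gene end, and 6 unpaired gene ends per library. LOC, LINC and histone symbols were left out, genes sharing a summit count once, and a selection is printed. Some genes the rule takes are left out of the text.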

Additional observations from a re-analysis of the deposited data

How the results depend on the processing

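The number of shared summits stayed within 1.5 times of 6209 (4574 at 100 bp, 6955 at 500 bp), and the median log2 ratio, 0.26, was 0.27 and 0.26. The share of summits at a gene end, 23.4% and 17.5%, was 20.5% and 15.2% with a 500 bp window, and 26.0% and 19.9% with 2000 bp. The 27 sites above 1 log2 unit and the 19 below -1 numbered 90 and 63 with at least 20 fragments and 10.0 and 4 with at least 80. Pairing within 500 bp gave 45 above, centring on the background gave 20 above and 32 below, the other balance, and a fold of 0.5 log2 units gave 296 and 220. Taking the highest solution gave 672 and 771. It put PPP3CB at -5.01, SYPL1 at -4.38, TRPM7 at -6.80, DLG2 at -4.84, OPN3 at -0.57 and MRPS28 at 5.39, each on the other side of the median; at named sites with several solutions this needs a local background of 386 to 8586 times that of the genome. Among 41 named summits with several solutions, 33 have the lowest at the genome background. Over sites with a single solution in both libraries, a choice made after seeing the data, 2118 of 3371 (62.8%) remained, with 20 above and 13 below. Of 625 values of 130 named gene ends under these settings, 586 stayed inside the counting interval. The pairing and centring settings mostly re-centre the same fragment pair, so they could move a value only little. At 100 bp 25 gene ends lost their pair and have no value. Centring at like strength left 32 of 36 intervals off the median, and those of FAM86B1, MCM7, PIM1 and SLBP included it. List medians took the other sign in 7 of 90 cases, for 5 of 18 lists, all within their spread. No paired analysis was possible because each group is 1 library with no replicate number. Depth limits most sites, since counting alone gives an SD of 0.42 at the weakest compared sites.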
